A study of Mus musculus with 6 samples.

Results

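The genes described here were selected on their signal after 4 months of feeding, which in alcohol-fed mouse liver was 0.5 of that in control liver or less on both arrays. Of 41174 probes on the array, 71 (0.172%) met this rule, and 8 of these were left out by name because they measure cytochrome P450s, Hsd3b enzymes, major urinary proteins, Arrdc3 or Sucnr1. The remaining 63 probes carry 61 of the 28786 names on the array, and 28 of them could be given a current symbol. The study fed male 129/Sv mice, 6 to 8 weeks of age when feeding began, ad libitum on a Lieber-DeCarli liquid diet that held 4% ethanol, or on an isocaloric control diet in which maltose dextran replaced the ethanol. Liver RNA of 6 mice per diet was pooled after 1, 2 and 4 months, and the pools of a month were labelled in both dye orientations on 2 two-colour arrays. A month is therefore 1 alcohol pool against 1 control pool, the spread between single mice was not measured, and the 2 arrays of a month are technical repeats. As the tissue is whole liver, fewer cells of a type and less RNA per cell cannot be told apart in any of these values.

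Much of what a hepatocyte secretes or takes up is set by hormones. Growth hormone released in pulses from the male pituitary keeps the transcription factor STAT5 active in the liver at intervals, and many hepatocyte genes differ between male and female mice because of it. Cish is a rapid target of that pathway and feeds back to restrain it. Other lowered genes are known singly or in pairs from other processes, such as C6 and C9 from complement, Slco1a1 from organic anion uptake, Adh4 from alcohol oxidation and Nr1d1 from the circadian clock.

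The promoters of 3 of these genes are shown because Obp2a had the lowest ratio of all members, and Cish and Hamp2 were the only members whose promoters held the STAT element, a choice made after the search. RefSeq promoters of mouse assembly GRCm38.p6, reaching from 250 bases before the gene's start to 50 bases after it, were found for 24 of the 28 symbols (26 promoters). Capitals in the Obp2a promoter (chr2:25699824-25700123, plus strand) mark TATAAA, which starts 61 bases before the gene's start. Capitals in the Hamp2 promoter (chr7:30924132-30924431, minus strand) and the Cish promoter (chr9:107296409-107296708, plus strand) mark the letters TTCNNNGAA, the palindromic element that STAT factors bind.
Obp2a: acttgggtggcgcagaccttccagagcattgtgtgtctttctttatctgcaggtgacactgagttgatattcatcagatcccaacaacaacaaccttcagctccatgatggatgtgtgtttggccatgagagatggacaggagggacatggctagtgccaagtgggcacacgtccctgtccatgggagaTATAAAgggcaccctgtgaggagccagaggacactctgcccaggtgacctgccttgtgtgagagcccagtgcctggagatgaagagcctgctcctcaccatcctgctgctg
Hamp2: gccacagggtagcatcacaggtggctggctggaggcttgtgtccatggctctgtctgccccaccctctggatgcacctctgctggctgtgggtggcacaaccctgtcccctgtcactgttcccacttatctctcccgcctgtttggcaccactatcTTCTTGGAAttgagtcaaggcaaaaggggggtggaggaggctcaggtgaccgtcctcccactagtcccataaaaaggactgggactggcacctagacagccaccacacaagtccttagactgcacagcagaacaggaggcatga
Cish: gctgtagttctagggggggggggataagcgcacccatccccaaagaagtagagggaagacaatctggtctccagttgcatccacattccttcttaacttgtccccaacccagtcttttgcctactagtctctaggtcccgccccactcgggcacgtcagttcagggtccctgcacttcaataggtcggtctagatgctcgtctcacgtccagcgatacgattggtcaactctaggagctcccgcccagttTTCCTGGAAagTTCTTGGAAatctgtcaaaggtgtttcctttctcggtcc
The element TTCNNNGAA occurred in 2 of the 26 member promoters, those of Cish and Hamp2, and in 8.3% of all 32851 promoters of the same length searched on both strands. Cish held 2 copies, at bases 251 to 259 and 262 to 270 of the printed sequence, and Hamp2 held 1 copy at bases 157 to 165. TATAAA was found on either strand in 7 of the 26 member promoters and in 13.6% of all promoters. The other motifs searched were TTATGTAA, the D-box (0 member promoters, 0.938% of all), CACGTG, the E-box (2, 7.15%), GTTAAT of HNF1 (2, 7.1%), CAAAGT of HNF4 (6, 14.4%) and TTGCGCAA of CEBP factors (1, 0.183%). These matches describe the letters and say nothing of whether a factor was bound.

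In what follows a ratio is the deposited log ratio of a probe turned to alcohol over control on the log2 scale, so that -1 is 0.5-fold and 0 is no difference, and the 2 arrays of a month are given as the array with the alcohol pool in Cy5 and then the array with it in Cy3. A level is the log2 processed signal of 1 pool minus the 75th percentile of its channel. The spread of a mean is the SD of its 2 arrays. Hepatocyte markers were well above background in both pools on every array (9 of 9 markers). The 13 pancreas acinar markers were higher in the alcohol pool on both 4-month arrays in 13 of 13 cases, with a summed signal of 55012 to 74703 in the alcohol pool and 43426 to 50174 in the control pool, and their part in the lowered set was not tested. The share of probes well above background in a pool was 73.1 to 75.1% on the 1-month arrays, which share 1 slide, and 78.8 to 90.3% on the 2- and 4-month arrays, which share another.

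At 4 months the control pool was well above background on both arrays for 49 of the 63 probes, and no member was saturated on any array. These 49 probes were divided by how the control level moved between the slides. For 25 the control level did not rise by 2 or more (log2) from 1 to 2 months, and for 24 it did. The remaining 14 probes were dim in the control pool on at least 1 of the 4-month arrays. The division was made after the values were seen and is a description. The rule used the 4-month ratios, so they are given without a test. Over all members the 4-month mean ratio ranged from -4.34 to -1.02 with a median of -1.31. Just inside the threshold lay AK035362 at 0.4991 and Hsf2 at 0.4991 of the control signal on their less lowered array, and the 3 probes just outside were Prim2 at 0.5024, AK045569 at 0.5026 and 1700001J03Rik at 0.5027. Neither 4-month array measured Hsf2 above background in a pool, so its place beside the threshold rests on dim spots.

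**Figure D1:**
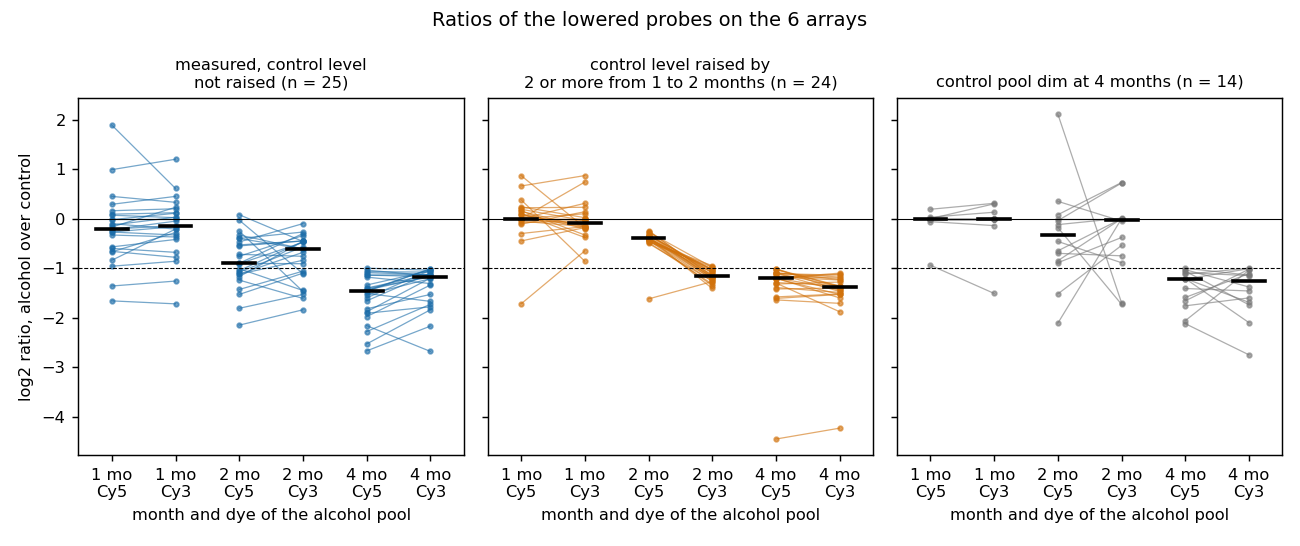
Each pair of joined points is 1 lowered probe on the 2 arrays of a month, labelled by the dye of the alcohol pool. The vertical axis is the log2 ratio of alcohol over control, thick bars are medians, the solid line is 0, the dashed line is 0.5-fold, and a probe without a measurable signal in either pool is plotted at 0. All probes lie at or under the dashed line at 4 months because the rule chose them there, while at 1 month the medians of the 3 panels lie between -0.21 and 0.

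Obp2a, a secreted lipocalin that the array lists as Lcn13, was lowered most. Its processed signal at 4 months was 128 and 92.7 in the alcohol pool against 2800 and 1744 in the control pool, which gave ratios of -4.45 and -4.23 (mean -4.34, SD 0.15) or 20.3-fold less. At 2 months the ratios were -1.62 and -1.27, with signals of 604 and 533 against 1854 and 1285. At 1 month neither array measured the alcohol pool well above background and 1 array measured the control pool so, with signals between 27.6 and 98.2, so the ratios of -1.72 and -0.65 there compare dim spots. The alcohol level was lower than the control level on all 4 arrays of 1 and 2 months, which did not enter the rule. Between 2 and 4 months the control level moved from 0.07 to -0.06, while the alcohol level went from -1.38 to -4.40. Obp2a is by its control level, -3.50 at 1 month, one of the 24 probes with a large step between the slides, and it is treated apart from them below.

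Slco1a1 and C6 were the 2 members already at 0.5-fold or less on both 1-month arrays, a share of 3.17% of the members beside 0.0389% of all probes. Slco1a1 encodes a sinusoidal transporter that takes up organic anions and is known for its male-predominant expression. Its ratios were -1.66 and -1.72 after 1 month, -0.55 and -0.45 after 2 months, and -1.09 and -1.13 after 4 months. The smallest difference was thus at 2 months, and the control level itself went from 1.32 at 1 month to 0.55 and 0.23 at the later months. A second probe of Slco1a1 lay outside the set because 1 of its 4-month arrays was above 0.5-fold (-1.61 and -0.61), and it had -1.76 and -1.75 at 1 month. C6, a component of the terminal complement complex, had ratios of -1.36 and -1.26 at 1 month, then -0.91 and -0.48 at 2 months, then -1.45 and -1.02 at 4 months. It was lower in the alcohol pool on all 4 arrays of 1 and 2 months, which did not enter the rule.

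C9, which polymerizes to form the pore of the same complex, was lower in the alcohol pool on all 4 arrays of 1 and 2 months too. Its ratios were -0.57 and -0.42 after 1 month, -1.17 and -0.46 after 2 months, and -1.88 and -1.2 after 4 months (mean -1.54, SD 0.48). The alcohol level of C9 was 1.99, 1.38 and 0.05 at 1, 2 and 4 months against 2.49, 2.20 and 1.59 in the control pool. Of the 33 acute phase and complement genes with a probe, 2 were at 0.5-fold or less on both 4-month arrays, and they are C6 and C9. The median ratio of that list at 4 months was 0.026, beside -0.001 over all probes. C8a and C8b, whose products join C6 and C9 in the complex, had 4-month mean ratios of -0.15 and -0.08.

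Cish, the STAT5 target with the paired element shown above, had ratios of -0.27 and -0.33 at 1 month, then -1.81 and -1.53 at 2 months, then -1.60 and -1.04 at 4 months. The alcohol pool was well above background on 1 of the 2 arrays at 4 months, and after normexp background correction and loess the 4-month ratios were -0.72 and -0.88. Of the 15 growth hormone signalling genes, Cish alone was at 0.5-fold or less on both arrays at 2 months and again at 4 months. At 1 month 1 other gene was so. On both arrays of 1 month 4 of the 15 were below 0 (22.2% of all probes) and 6 above 0 (20.4%). At 2 months 7 were below 0 (16.5% of all probes) and 1 above 0. At 4 months 4 were below 0 and 4 above 0, and the list median was 0.024. In the limma test given below, 3 were lowered (2.73% of all probes) and 0 raised (2.2%) at an unadjusted p under 0.05. Ghr, the growth hormone receptor, had ratios of -1.19 and -0.07 at 4 months, so the 2 dye orientations did not give the same size. Socs2, another STAT5 target, had a 4-month mean of 0.06, and Igf1, the main growth hormone effector from liver, had -0.01.

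Hamp2, a paralogue of the iron hormone hepcidin, changed sides between the months. The alcohol pool was higher at 1 month (0.99 and 1.2) and lower at 2 months (-1.24 and -1.61) and at 4 months (-1.41 and -1.18). Its alcohol level was 4.22, 0.82 and 1.62 and its control level 3.12, 2.25 and 2.91 at the 3 months. Hamp, which encodes hepcidin itself, had mean ratios of -0.22, 0.62 and 0.32, and as the genes are near-identical copies their probes may share signal.

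Car3, a carbonic anhydrase abundant in liver, muscle and fat, also changed sides, and 2 probes of it were members. The brighter probe had ratios of 1.89 and 0.61 after 1 month, -1.01 and -1.45 after 2 months, and -1.04 and -1.15 after 4 months. The other had 0.29 and 0.45, then -1.08 and -0.57, then -1.54 and -1.21. Both probes were thus above 0 at 1 month and below 0 at the later months on every array. Adipocyte markers had median ratios of 0.042, 0.143 and 0.146 at the 3 months, and skeletal muscle markers 0.027, -0.02 and 0.109. The part of fat or muscle in the Car3 ratios was not tested. After normexp background correction and loess the brighter probe had 4-month ratios of -0.70 and -1.25.

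Alas2, the erythroid form of the first enzyme of haem synthesis, was reduced 4.01-fold at 4 months (-2.28 and -1.73; mean -2.00, SD 0.39). Its ratios were -0.02 and 0.11 at 1 month and -1.05 and -0.46 at 2 months. The control level was 1.49, 1.93 and 1.70 at the 3 months and the alcohol level 1.53, 1.17 and -0.31, so the pools separated stepwise. Hba-a1 and Hbb-bt, the globins, had mean ratios of 0.61 and 0.63 at 4 months and 1.51 and 1.97 at 1 month, and the summed signal of the erythroid list at 4 months was 99475 to 104030 in the alcohol pool and 58800 to 89736 in the control pool. Epb42 of that list was not well above background at 1 and 2 months. The part of erythroid cells in the Alas2 ratio was not tested.

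Adh4, an alcohol dehydrogenase that also oxidizes retinol, had ratios of -0.21 and -0.14 at 1 month, then -0.76 and -0.34 at 2 months, then -1.47 and -1.01 at 4 months. Its control level stayed between 1.92 and 2.21 while the alcohol level went from 1.74 and 1.65 to 0.84. Rnf186, a ubiquitin ligase of the endoplasmic reticulum, had 0.09 and 0.12 after 1 month, -1.12 and -0.84 after 2 months, and -1.44 and -1.16 after 4 months. Both genes had their lowest alcohol level at 4 months, the month that the rule used.

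Nr1d1, the clock repressor also called Rev-erb alpha, had -0.13 and 0.03 at 1 month, then -0.90 and -0.91 at 2 months, then -1.07 and -1.08 at 4 months. The other probes of the gene had 4-month means of -0.62 and -0.64 and were not members. The control level of the member probe itself moved from 1.05 at 1 month to -0.56 and 0.24, so the level at a given month differed between pools and between slides. Of the 21 circadian clock genes, 0 were at 0.5-fold or less on both 4-month arrays when each was read by its brightest probe, and 4 were below 0 and 4 above 0 on both arrays. Dbp, an output gene of the clock, had 4-month ratios of -1.02 and -0.60, and Npas2, which acts on the opposing arm of the clock, had 0.41 and 1.06.

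**Figure D2:**
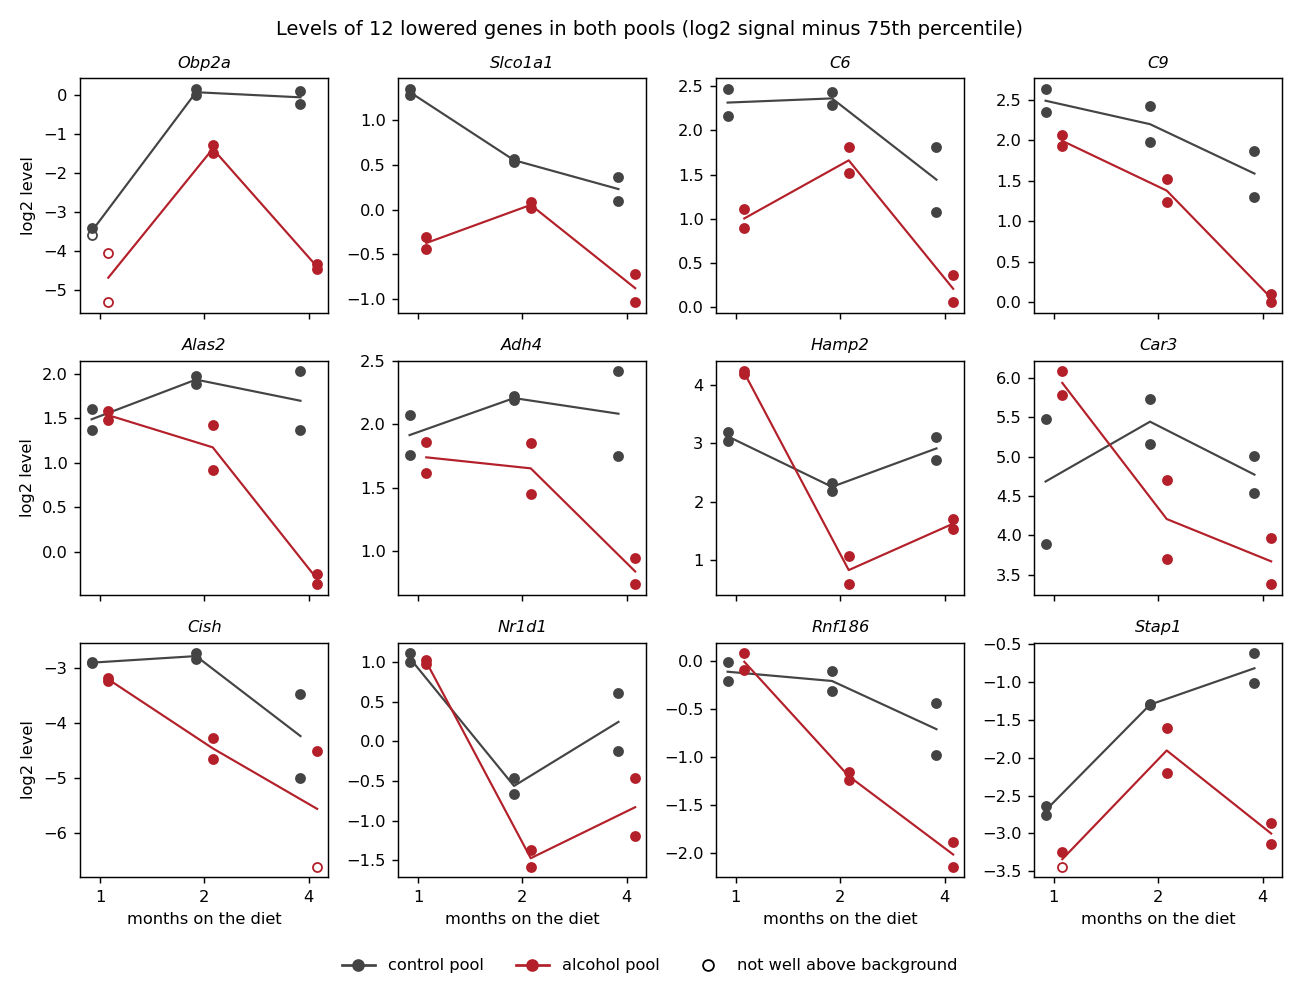
Levels of 12 lowered genes by month, as log2 processed signal minus the 75th percentile of the channel; points are single arrays, lines join the means of the 2 arrays, and open points are not well above background. Lines from 1 to 2 months cross from one slide to the other. At 4 months the mean of the alcohol pool lies lower in each gene because the rule chose them so. At 1 month the alcohol mean lies higher for Hamp2 and Car3 and close to the control pool for Alas2, Nr1d1 and Rnf186.

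Dntt and Stap1 are known from lymphocytes. Dntt, the template-free polymerase of immature lymphocytes, had ratios of -2.16 and -2.68 at 4 months, where neither array measured the alcohol pool above background, so its level there was at least 2.56-fold lower. The other probes of Dntt had 4-month means of -0.13 and 0.20. Stap1, a signalling adaptor described in B cells, had ratios of -0.60 and -0.68, -0.90 and -0.30, and -2.53 and -1.84 at the 3 months, while its other probe had a 4-month mean of -0.39. The 8 B cell and plasma cell markers had a 4-month median of -0.027, with 0 below 0 on both arrays, and a summed signal of 27119 to 29269 in the alcohol pool and 25146 to 28847 in the control pool. The 10 T and natural killer cell markers had a median of 0.017, also with 0 below 0 on both arrays, and a summed signal of 34546 to 46339 against 35740 to 45870. Gzma was not well above background in any pool of any month. The part of lymphocyte numbers in the ratios of Dntt and Stap1 was not tested.

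Ntrk2, the receptor of brain-derived neurotrophic factor, was represented by 2 member probes, with 4-month ratios of -1.91 and -1.78 for one and -1.82 and -1.53 for the other. Another probe of the gene had a 4-month mean of -0.08, so the probes of Ntrk2 disagree. Adgrv1, a very large adhesion receptor that the array lists as Gpr98, had -0.22 and -0.05 after 1 month, -1.53 and -1.10 after 2 months, and -1.51 and -1.67 after 4 months. Of its other probes measured in the control pool at 4 months, one came close to the threshold with a mean of -0.98 and the others had -0.18 and 0.44. Rgs3, a regulator of G protein signalling, had a 4-month mean of -1.38, while its 4 other probes had means from -0.73 to 0.11. Dsg1c, a desmosomal cadherin, was above 0 at 1 month (0.45 and 0.33) and below at 2 months (-1.43 and -1.06) and 4 months (-1.34 and -1.05). Prkcn, a protein kinase, went from 0.16 and 0.20 to -0.40 and -0.61 and then -1.14 and -1.13, and its 4 other probes had 4-month means from -0.75 to -0.46.

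The least characterized members of the 25 probes were transcripts known by a sequence name. AK044272 was lowered 5.36-fold at 4 months (-2.67 and -2.17) and had -0.96 and -0.86 at 1 month and -0.47 and -0.10 at 2 months. AK080781 had -2.15 and -1.84 at 2 months and -1.98 and -1.34 at 4 months. Neither pool of AK080781 was measured above background at 1 month, and its alcohol pool was so on only 1 of the 2 arrays at 2 months and at 4 months, so these ratios include a dim spot. LOC665393, 4931408D14Rik and 9030618K22Rik had 4-month means of -1.26, -1.25 and -1.15 and were below 0 on all 4 arrays of 1 and 2 months. AK035362, one of the probes nearest the threshold, had no measurable signal at 1 month in either pool, and its alcohol pool was above background on 1 of the 2 arrays at 4 months.

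Across the 25 probes, the alcohol level was lower at 4 months than at 1 month in 24 and lower than at 2 months in 23. The control level was lower in 14 and 14. Over all 41174 probes the control level was lower at 4 than at 2 months in 21258. The rule chose a low alcohol signal against the control at 4 months, so the alcohol counts follow in part from it. The 1-month levels also come from another slide. The median ratio of the 25 was -0.15, -0.754 and -1.30 at the 3 months. In 14 of the 25 the ratio was lower at each later month, a count that the rule's own choice on the 4-month ratios fixes in part. The exceptions include C6, Slco1a1, Stap1, Dntt and AK044272, which were lower at 1 month than at 2 months, and Cish, Hamp2, Dsg1c, AK080781 and the brighter Car3 probe, which were lowest at 2 months.

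The 1- and 2-month pools did not enter the rule and allow the members to be read against all probes. At 1 month 21 of the 63 were below 0 on both arrays (33.3%) beside 22.2% of all probes, and 12 were above 0 on both (19.0%) beside 20.4%. Of the 21, 14 were among the 25 probes described so far. For 28 members neither pool was well above background on either 1-month array, and 14 had no ratio at all there. At 2 months 53 of the 63 were below 0 on both arrays (84.1%) beside 16.5% of all probes. The 7 members at 0.5-fold or less on both 2-month arrays (11.1%, beside 0.0729% of all probes) were Obp2a, AK080781, Adgrv1, Cish, Hamp2, Dsg1c and the brighter Car3 probe. No member was at 0.5-fold or less on all 6 arrays, and 19 were below 0 on all 4 arrays of 1 and 2 months, beside 4.73% of all probes. The 2- and 4-month arrays lie on the same slide, so a likeness between these months that comes from the slide cannot be told apart from one that comes from the pools.

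With the monthly ratios of 1 and 2 months as 2 replicates, limma called 0 of the 54 members that could be tested at an adjusted p under 0.05 (Benjamini-Hochberg over 35878 probes), and it called 0 lowered probes (0.0%) and 4 raised probes (0.0111%) in all. At an unadjusted p under 0.05, 19 of the 54 members were lowered beside 2.73% of all probes, and 0 were raised beside 2.2%. A plain t-test of the same 2 monthly ratios against 0 gave 1 lowered member at an unadjusted p under 0.05, beside 2.16% of all probes. It gave 0 probes after adjustment. The study's methods name a t-test, but describe other software for the differential analysis of its arrays. Obp2a had the lowest p in limma, with a mean log2 ratio of -1.31 (SE 0.106) over the 2 months and an adjusted p of 0.213. Of the 4 limma fits that each left out 1 array, 2 called Obp2a, with adjusted p of 0.0301 without the second 1-month array and 0.00388 without the second 2-month array, and the latter also called C6 at 0.0298. The other 2 did not call Obp2a, with adjusted p of 0.366 without the first 1-month array and 0.313 without the first 2-month array. Next came Stap1 (-0.62, SE 0.0891, adjusted p 0.613), Dntt (-0.64, SE 0.0946, adjusted p 0.616), C6 (-1.0, SE 0.163, adjusted p 0.709) and C9 (-0.66, SE 0.113, adjusted p 0.787). The other lowered members at an unadjusted p under 0.05 were LOC665393, 4931408D14Rik, 9330168M11Rik, Slco1a1, AK044272, AK080781, ENSMUST00000077152, Cpeb2, one Ntrk2 probe, Cish, Adh4, 9030618K22Rik, Foxj3 and Adgrv1, with adjusted p between 0.959 and 0.999. All of these tests rest on 2 pairs of pools, and several rest on dim spots. On the 1-month array that the fit without the second 1-month array kept, neither pool of Obp2a was well above background. The alcohol pool of Dntt was not measured above background on either 1-month array and was so on 1 of the 2 arrays at 2 months, and neither pool of 9330168M11Rik, AK080781, ENSMUST00000077152 or the Ntrk2 probe was measured at 1 month. When only probes measured in both pools on all 4 arrays were fitted, 12 of the 22 members in that fit were lowered at an unadjusted p under 0.05. The share of all probes was not computed for that fit, so nothing about the members is read from the count.

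Members were found in 6 of the 13 pathway lists. The male-predominant liver list held Slco1a1, C6, Alas2 and Obp2a. When each of its 27 genes was read by its brightest probe, 5 were at 0.5-fold or less on both arrays at 1 month (0.0389% of all probes), 1 at 2 months (0.0729%) and 3 at 4 months (0.172%). Of the 5 at 1 month, Slco1a1 and C6 were members and the others were not. In limma over 1 and 2 months 11 of the 27 were lowered (2.73% of all probes) and 0 raised (2.2%) at an unadjusted p under 0.05, with 0 called after adjustment. The list was chosen with earlier results of these data known, so these counts describe it and are no test of it. The list's median ratio was -0.266, -0.154 and -0.114 at the 3 months, beside a median over all probes of 0 at 1 and 2 months and -0.001 at 4 months. Elovl3 (-1.46 and -0.93 at 4 months), which elongates fatty acids, and Nudt7 (-1.26 and -0.89), a coenzyme A hydrolase, lay just outside the set, each with 1 array above 0.5-fold. The female-predominant list held Hamp2, Adh4 and Ntrk2. Read by the brightest probe, Hamp2 and Adh4 were at 0.5-fold or less on both arrays at 4 months and Ntrk2, whose member probes are dimmer ones, had -0.30 and 0.14. Of the 24 genes 11 were above 0 and 3 below 0 on both arrays then, with Sult3a1 at 2.37 and 1.91. On both arrays of 1 month 13 were above 0 (20.4% of all probes) and 4 below 0 (22.2%). The list's median was 0.121, -0.042 and 0.087. The hepatic transporter list held Slco1a1 alone of 28 genes, and fatty acid and triglyceride synthesis, cholesterol synthesis, gluconeogenesis, amino acid, interferon-induced, conjugation and stress lists held 0 members.

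The 24 probes whose control level rose between the slides shared a uniform pattern. Their control level was higher at 2 months than at 1 month by 2.60 to 7.22 (median 5.0), and the alcohol level rose with it by 1.73 to 6.19. Such a step was found in 24 of the 49 members measured in the control pool at 4 months, beside 2.52% of all probes measured in the same way. At 1 month 14 of the 24 were not well above background in either pool on either array. Apart from Obp2a, their 2-month ratios fell between -0.50 and -0.24 with alcohol in Cy5 and between -1.41 and -0.95 with alcohol in Cy3. At 4 months they were between -1.64 and -1.01 and between -1.88 and -1.10. A 2-month ratio above -0.5 in the first dye orientation together with one below -0.9 in the second was seen in 22 of the 24 and in 1.13% of all probes measured in the control pool at 4 months. These bounds were drawn from the values of the 24 probes themselves, so the count is a description from which nothing is read. The 821 other probes with a step of 2 or more had 2-month medians of 0.22 and -0.23 in the same orientations.

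**Figure D3:**
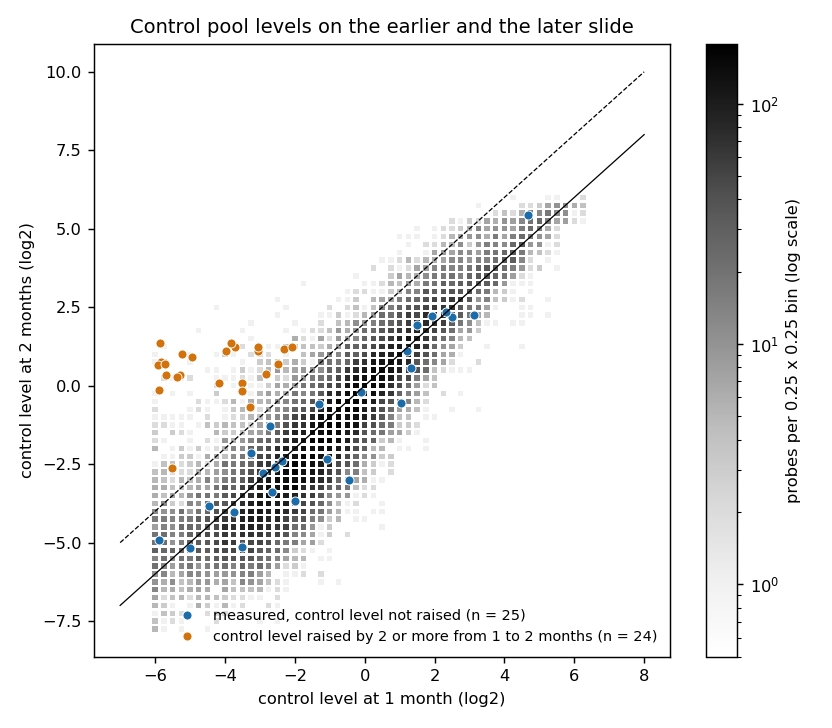
Control level of a probe at 1 month against 2 months, in log2 relative to the 75th percentile of the channel. Grey squares count all probes measured in the control pool at 4 months, blue and orange points are the lowered probes without and with a raised control level, the solid line marks equal levels and the dashed line a step of 2. The orange points lie 2.60 to 7.22 above equality, away from most probes.

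The genes of this group have varied roles. Wnt3 (-1.64 and -1.71 at 4 months) is a secreted developmental signal, and Pou1f1 (-1.2 and -1.60) is the pituitary factor that drives growth hormone itself. Tbx20 (-1.29 and -1.35) is a cardiac transcription factor, and Taf7l (-1.11 and -1.14) is known from the testis and fat. Pbx3 (-1.10 and -1.37) and Foxj3 (-1.10 and -1.47) are transcription factors, and Cpeb2 (-1.2 and -1.10) binds the tails of messenger RNAs. Rdh14 (-1.32 and -1.28) reduces retinal, Pnp (-1.01 and -1.45) cleaves purine nucleosides, and B3gnt2 (-1.21 and -1.12) extends sugar chains. The others include 2810429I04Rik (-1.30 and -1.88), 1700086P04Rik (-1.61 and -1.53), A430070M19 (-1.58 and -1.52), AK049094 (-1.39 and -1.49), 9330168M11Rik (-1.42 and -1.40), ENSMUST00000077152 (-1.10 and -1.18) and 1810046K07Rik (-1.16 and -1.2), which had among the highest ratios at 1 month (0.66 and 0.87). The alcohol pool of A430070M19 was above background on 1 of the 2 arrays at 4 months.

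The array carried 14 other probes of 11 of these genes that were measured in the control pool at 4 months. Their mean 4-month ratios ranged from -0.28 to 0.31 with a median of 0.04, and 0 were at 0.5-fold or less. Their control level changed between the slides by a median of -0.23, from -1.24 to 1.59. For the genes of the first 25 probes, 18 other probes of 8 genes had a median of -0.43, from -1.11 to 0.44, and 1 was at 0.5-fold or less. That one was the second Slco1a1 probe at -1.11, and an Adgrv1 probe came next at -0.98. In the set with a raised control level no neighbour had the lowering or a step of 2. The probe sequences were not used here, and why single probes of a gene behaved apart was not tested.

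**Figure D4:**
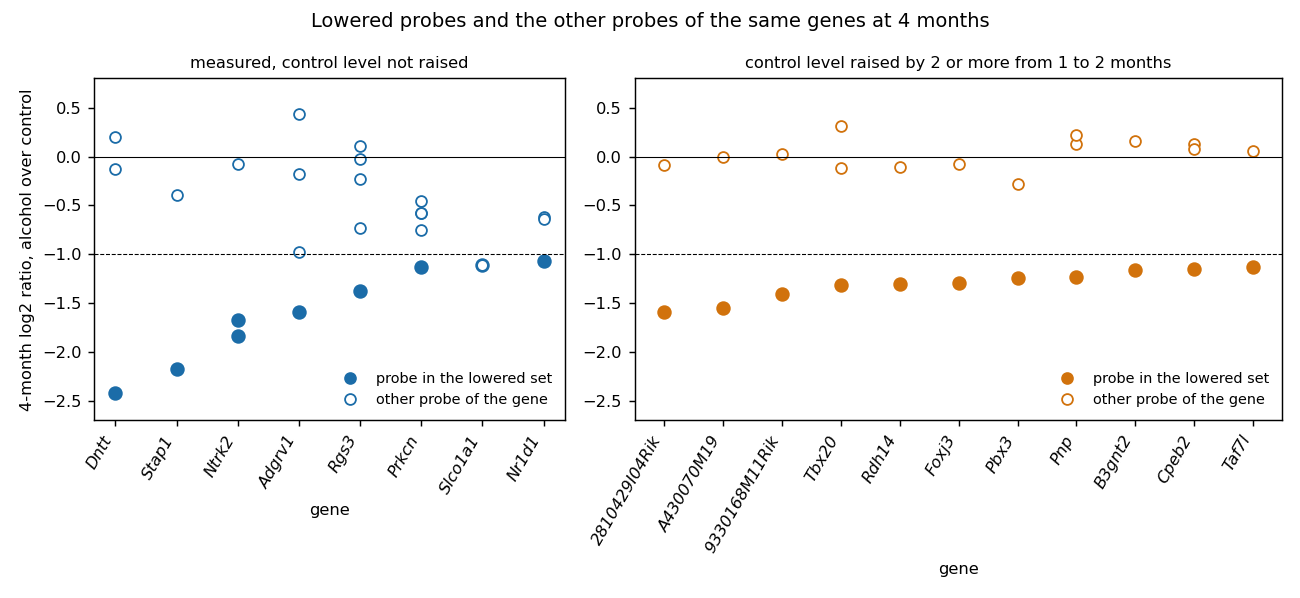
Mean 4-month log2 ratio of each lowered probe (filled) and of the other probes of the same gene measured in the control pool on both 4-month arrays (open). In the right panel, the 14 open points lie between -0.28 and 0.31, and in the left panel only the second probe of Slco1a1 lies under the dashed line at 0.5-fold.

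For the 14 dim probes at least 1 of the 4-month arrays did not measure the control pool well above background (for 10, neither did), and a ratio between 2 dim spots is no measured fold change. The array names Fmn2, Osbpl8, Akr1b3 and Hsf2 are among them, along with transcripts known by sequence names. Neither pool was well above background on any 4-month array for 10 of the 63 members. The 7 other probes of 5 of these genes that were measured in the control pool had a 4-month median of -0.01, from -0.77 to 0.07, and the lowest were those of Osbpl8. For this group the 1-month median was 0 and the 2-month median -0.373.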

How the data were processed

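The authors deposited Agilent Feature Extraction 9.1.1.1 output of 6 two-colour arrays, which gives for each spot a signal intensity per channel (background subtracted, dye normalized), their log10 ratio (Cy5 to Cy3) and a modeled error of that ratio, an error score used only as a weight. The authors also deposited a table of log10 ratios of the same arrays, used as an alternative. Members were found on the ratio of processed signals and described by the deposited log10 ratio, turned to alcohol over control, converted to log2 and averaged over spots and then over the dye swap. Control spots were not used, and a non-uniformity or manual flag marked 0 spots. Symbols came from RefSeq accessions (assembly GRCm38.p6, 22951 probes); other probes kept the array's name.

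limma 3.58.1 in R 4.3.3 tested the 1- and 2-month ratios against 0 (n = 2 pairs of pools) over probes that at least 1 channel of those arrays measured above background, with Benjamini-Hochberg adjustment at 0.05, and was tested on simulated data. The 6 arrays, with no replicate pools within a month, limit the precision. A bound ("at least") is the control mean against the dimmest measurable signal, after normexp (offset 50), loess and Aquantile normalization, and is open to dye bias. Listed genes with several probes were read by the brightest. Genes named are the 15 lowest at 4 months in a measured control pool, those at 0.5-fold or less at another month, in a list, nearest the threshold, highest at 1 and 2 months, at an unadjusted p under 0.05, or with 2 member probes; non-members given beside them were chosen after their values were seen. Some items that this rule names are not reported here. The members, gene lists and motifs were chosen with earlier results of these data known. Alternatives were the normalization, the deposited table, centring, a filter on dim probes, distinct genes, thresholds, weighting, the methods' t-test and leaving out arrays or months. The remaining work was done in Python 3.11.15 (numpy 2.4.6, pandas 2.3.3, matplotlib 3.10.9).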

Additional observations from a re-analysis of the deposited data

Results flagged for a closer look

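On the 4 arrays of 1 and 2 months, 22 members were measured above background in each pool throughout. Of these, 7 probes of 6 genes had the alcohol pool above the control pool on both 1-month arrays and below it on both 2-month arrays, beside 4.6% of the 28050 probes measured in the same way. At 2 months 53 of the 63 members were below 0 on both arrays (16.5% of all probes), on the slide of the 4-month arrays that the rule used. At 1 month 12 of the 63 (19.0%) were above 0 on both, beside 20.4% of all probes. The share that changed sides is therefore not read as a trait of the members. The ratio at 2 months minus that at 1 month was -2.52 for Hamp2, -2.48 and -1.2 for the probes of Car3, -1.63 for Dsg1c, -1.09 for Rnf186, -0.95 for B3gnt2 and -0.69 for Prkcn, on the log2 scale. These differences between months were not tested, since each month has 1 pool of each diet. The months also lie on different slides, and the slide and the month cannot be told apart. At 1 month Rnf186 (0.09 and 0.12), Prkcn (0.16 and 0.2) and B3gnt2 (0.22 and 0.23) lay closer to 0 than Hamp2 (0.99 and 1.2), and B3gnt2 was one of the probes whose control level rose between the slides.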

How the results depend on the processing

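The number of members was 57 to 62 with centred arrays, distinct genes or the deposited table and 44 with both pools measured. It was 38 with normexp and loess (37 of them members, 15 of 25 probes without and 22 of 24 with a raised control level, and 0 of 14 dim probes), 140 by the mean of the pair, 17 at 0.4-fold, 302 at 0.67-fold and, added after seeing the data, 39 without the raised control levels. Under normexp C6 (-1.59 and -0.94), Slco1a1 (-0.99 and -1.15), Nr1d1 (-0.98 and -1.06), Cish (-0.72 and -0.88) and the brighter Car3 probe (-0.70 and -1.25) had 1 or both 4-month arrays above 0.5-fold. Members at 0.5-fold or less at 2 months numbered 4 with normexp and 14 to 31 on a single array, and those at 1 month 3 on either array. The share of all probes was not computed for these counts. Called members were 0 to 2 in the fits without an array and 0 in the others. Over all probes, the fits without an array called 0 to 10 lowered. At an unadjusted p under 0.05 there were 34 with normexp, 12 of 22 with both pools measured on all 4 arrays and 17 to 27 without an array. A plain t-test gave 1. The share of all probes was computed only for the main fit and the t-test. Calls at an adjusted p over all probes also moved, from 0 lowered and 4 raised in the main fit to 10 and 32 with normexp. These counts are therefore not read as results about the members. The median effect over the 54 tested members was -0.421, and -0.497 to -0.269 without an array. Without month 1 it was -0.746 and without month 2 it was -0.038. Effects that changed sign, all uncalled, were those of 1810046K07Rik (-0.153 with normexp, -0.165 to 0.221 without an array), Car3 (-0.001 with normexp, -0.046 with weights, -0.308 to 0.333 without an array), Hsf2 (-0.03 with weights, -0.072 to 0.309 without an array), AK048881 (-0.485 to 0.037 without an array) and AK035362 (-0.231 to 0.04 without an array); the cause was not tested. No paired analysis was possible by replicate number because the numbers name the dye orientation of arrays of the same 2 pools; the 2 pools of a month are already paired in the ratios that were tested.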
